A study of Mus musculus with 4 samples.

Results

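The cells described here were CD45+ liver cells that carried the neutrophil receptor Csf3r and at least 5 UMIs of Il1b but no UMI of Retnlg or Mmp8, a pattern labelled as Il1b-high inflammatory mature neutrophils. Barcodes were kept where they held 500 UMIs or more (unique molecular identifiers, each counting 1 captured probe) over 250 genes or more, with mitochondrial UMIs at 10% or less. The gates were Csf3r at least 1, Il1b at least 5, Retnlg plus Mmp8 at 0, fewer than 3 of Camp, Ngp, Ltf and Lcn2 detected, Ifit1 plus Ifit3 plus Rsad2 at most 2, no Cd3e, and Cd79a plus Cd79b at most 1. They numbered 180 of 32876 kept cells, of which 57 came from URI, 29 from GS, 24 from WT 1 and 70 from WT 2. Because these 14 genes chose the cells, their values are given as a description and were not tested.

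The series compared 3 mouse genotypes by single-cell RNA profiling of CD45+ cells from liver with a fixed-RNA probe assay, which reads only genes that have a probe. The URI(+/delta)Hep library and the GS(+/delta)Hep library carried a heterozygous deletion in hepatocytes of URI (gene Uri1, a prefoldin-like chaperone) or of GS (glutamine synthetase, gene Glul), and 2 libraries were wild type (WT). All 4 groups of mice, WT included, were sampled 1 week after tamoxifen, and each library pooled cells of 5 mice. The Cre driver, sex and age of the mice were not given in the sources used here. The deletions were in hepatocytes, so Uri1 and Glul in immune cells check no label. Glul had 15 UMIs in the Il1b-high cells of the URI library, 18 in GS, 6 in WT 1 and 28 in WT 2, and Uri1 had 6, 2, 3 and 8 UMIs in the same order of libraries. Each genotype with a deletion had 1 library, and nothing said that the WT libraries came from separate experiments. The p-values below compare 2 cell classes, with library as a block in the main fits. They measured the spread of that class difference over these libraries, which may be technical.

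Mature neutrophils are short-lived granulocytes that leave the bone marrow and enter tissues in response to chemokines. Interleukin 1 beta, the product of Il1b, is a cytokine made as a precursor and cut by caspase-1 once an inflammasome such as NLRP3 has formed. In the liver, neutrophils that carry it are known from sterile injury and steatohepatitis. The other genes given as markers of these cells were Cxcl2, a chemokine that draws neutrophils through Cxcr2, Ptgs2, the inducible cyclooxygenase, Nlrp3, the inflammasome sensor, and Acod1, which makes itaconate from the citric acid cycle.

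Kept cells numbered 9096 in the URI library, 7846 in GS, 8481 in WT 1 and 7453 in WT 2, with total UMIs of 24041049 to 51920505 per library and median UMIs per kept cell of 2659 to 4973, lowest in WT 2. No full barcode was shared between libraries. Of 6695 cells with Csf3r, 3231 had at least 5 Il1b UMIs, and 269 of those had no Retnlg or Mmp8 UMI. The gates on Camp to Lcn2, on interferon genes, on Cd3e and on Cd79a plus Cd79b left 268, 232, 197 and 180 cells in turn.

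The neutrophil part of the label held for most of the cells and not for all of them. The marker counts here do not bear on its other parts, Il1b-high, inflammatory and mature. Marker UMIs were counted in each cell over 23 neutrophil markers (the neutrophil list without Csf3r) and over 32 monocyte, macrophage and dendritic cell markers, and the neutrophil share of these UMIs split the cells into sets with 3 cells between 0.3 and 0.7. In 136 of 180 cells the share was at least 0.5, and these are called neutrophil-marker cells here. They were 44 of 57 cells in URI, 20 of 29 in GS, 17 of 24 in WT 1 and 55 of 70 in WT 2. The neutrophil-marker cells had a median of 14.5 neutrophil markers and 1 monocyte or macrophage marker detected, 42 UMIs of S100a8 plus S100a9 (the alarmin pair that fills neutrophil cytosol) and 22 UMIs of Csf3r, at a median of 2398.5 UMIs per cell. The other 44 cells (13 in URI, 9 in GS, 7 in WT 1 and 15 in WT 2) had a median of 6.5 neutrophil and 9 monocyte or macrophage markers, 2 UMIs of S100a8 plus S100a9, 3 of Csf3r and 46.5 of Apoe, at a median of 8224 UMIs per cell. Among them 43 had Csf1r, the macrophage growth factor receptor, 40 had at least 10 UMIs of Apoe, the apolipoprotein of macrophages, 23 had Ace, found on patrolling monocytes, and 6 had at least 50 UMIs of Cd74, the invariant chain of antigen presentation. Csf1r was not confined to them, as 17, 10, 8 and 17 neutrophil-marker cells of URI, GS, WT 1 and WT 2 also had a UMI of it. The split was chosen after the values were seen, so the 2 sets are described side by side with no test between them.

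**Figure D1:**
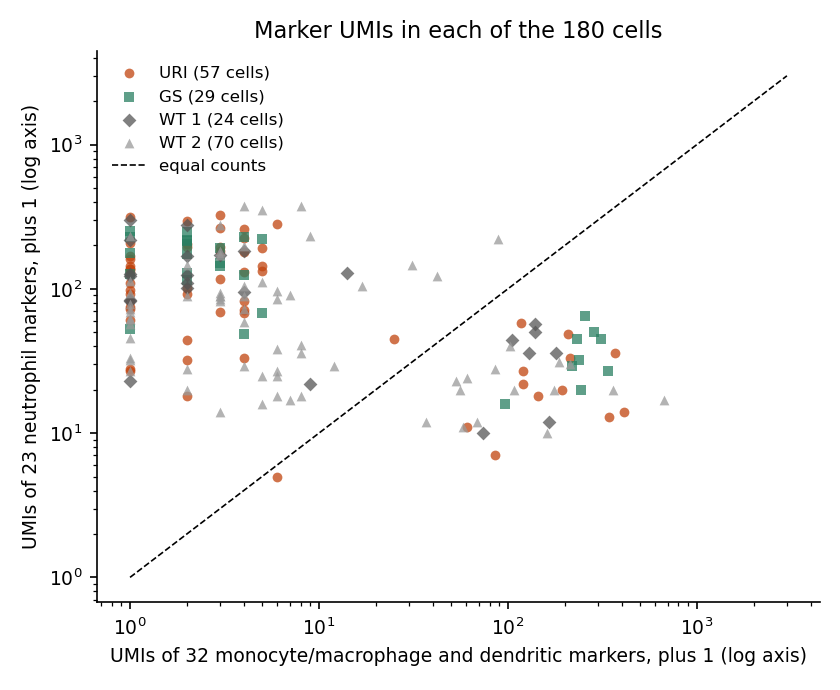
UMIs of 23 neutrophil markers (vertical, log axis) against UMIs of 32 monocyte, macrophage and dendritic cell markers (horizontal, log axis) in each of the 180 Il1b-high cells, 1 point per cell and 1 colour and shape per library; the dashed line marks equal counts. A group of 136 cells lies above the line and 44 cells lie below it, in all 4 libraries.

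The marker lists showed the same split as summed levels in CPM (each gene's counts scaled to the same total in every set, so that sets of unequal depth share a scale). The neutrophil list summed to 61673, 65904, 66559 and 62193 CPM in the neutrophil-marker cells of URI, GS, WT 1 and WT 2, with none of its 24 genes at 0 in every library. In the monocyte/dendritic-marker cells it summed to 3552, 3495, 4285 and 3654. The monocyte and macrophage list ran the other way, 486, 408, 523 and 2173 in the neutrophil-marker cells and 16470, 19514, 13067 and 14561 in the monocyte/dendritic-marker cells. The dendritic cell list was at 7913 in the URI and 10695 in the WT 2 monocyte/dendritic-marker cells, and at 1259 in GS and 2061 in WT 1. In the neutrophil-marker cells it was between 81.5 and 1061, highest in WT 2. NK cell markers summed to 1712 in the GS and 2519 CPM in the WT 1 neutrophil-marker cells, against 68.2 in URI and 90.1 in WT 2. In GS and in WT 1 they lay in 1 cell each with at least 3 NK markers, that of WT 1 marked by Scrublet, and without these cells the sums were 36.6 in GS and 28.5 in WT 1. Hepatocyte markers summed to 451 in WT 1 and 179 in GS, against 0 in URI and 10.0 in WT 2. Scrublet, a doublet caller set to mark the top 5% of cells of each library, marked 6 of the 180 cells. The part of these other-cell transcripts in any result was not tested.

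Il1b was higher in CPM in the neutrophil-marker cells than in the others in all 4 libraries. The 180 cells held 5 to 112 Il1b UMIs each, with a median of 20. In the neutrophil-marker cells Il1b stood at 14453, 18560, 12974 and 12937 CPM in URI, GS, WT 1 and WT 2. In the monocyte/dendritic-marker cells it was 1638, 1080, 1341 and 2156. In neutrophils that carried at least 3 UMIs of Retnlg plus Mmp8 and passed the other gates (2122 cells, without an Il1b gate) it was 7816, 10160, 9905 and 9392. Of these Retnlg/Mmp8-positive neutrophils 86.8%, 87.4%, 87.3% and 88.5% also had at least 5 Il1b UMIs. At least 5 Il1b UMIs were thus found in most neutrophils of these libraries, and the gate on Retnlg and Mmp8 was the one that most of them did not pass. The comparator above had no Il1b gate, so a lower Il1b level in it is partly built in. Neutrophil-marker cells with at least 5 Il1b UMIs and 3 to 9 Retnlg plus Mmp8 UMIs had Il1b at 14447, 14856, 16201 and 12484. Those with 30 or more had 8054, 9854, 8892 and 7971.

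Of the other 4 markers, Ptgs2 was higher in the neutrophil-marker cells than in Retnlg/Mmp8-positive neutrophils in all 4 libraries, and Cxcl2 and Acod1 varied most between libraries. Ptgs2 stood at 1295, 1973, 2329 and 1001 CPM in the neutrophil-marker cells of URI, GS, WT 1 and WT 2, against 553, 672, 435 and 583 in Retnlg/Mmp8-positive neutrophils, and these ranges did not overlap. Cxcl2 stood at 7414 in URI (exact Poisson 95% interval 6930 to 7924, counting error only) and 6078 in WT 2, and at 2267 in GS and 2115 in WT 1. In Retnlg/Mmp8-positive neutrophils Cxcl2 was 3142, 3092, 2221 and 4861. Nlrp3 was 2480, 1664, 1782 and 2684 in the neutrophil-marker cells, against 1253, 1608, 1210 and 1756 in Retnlg/Mmp8-positive neutrophils. Acod1 ranged most, at 494, 652, 47.5 and 2073, where the WT 1 value rests on 2 UMIs, against 405, 274, 175 and 1016. The order of the libraries for Cxcl2 and Acod1 did not follow genotype, since WT 1 was the lowest and WT 2 was first for Acod1 and next after URI for Cxcl2.

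**Figure D2:**
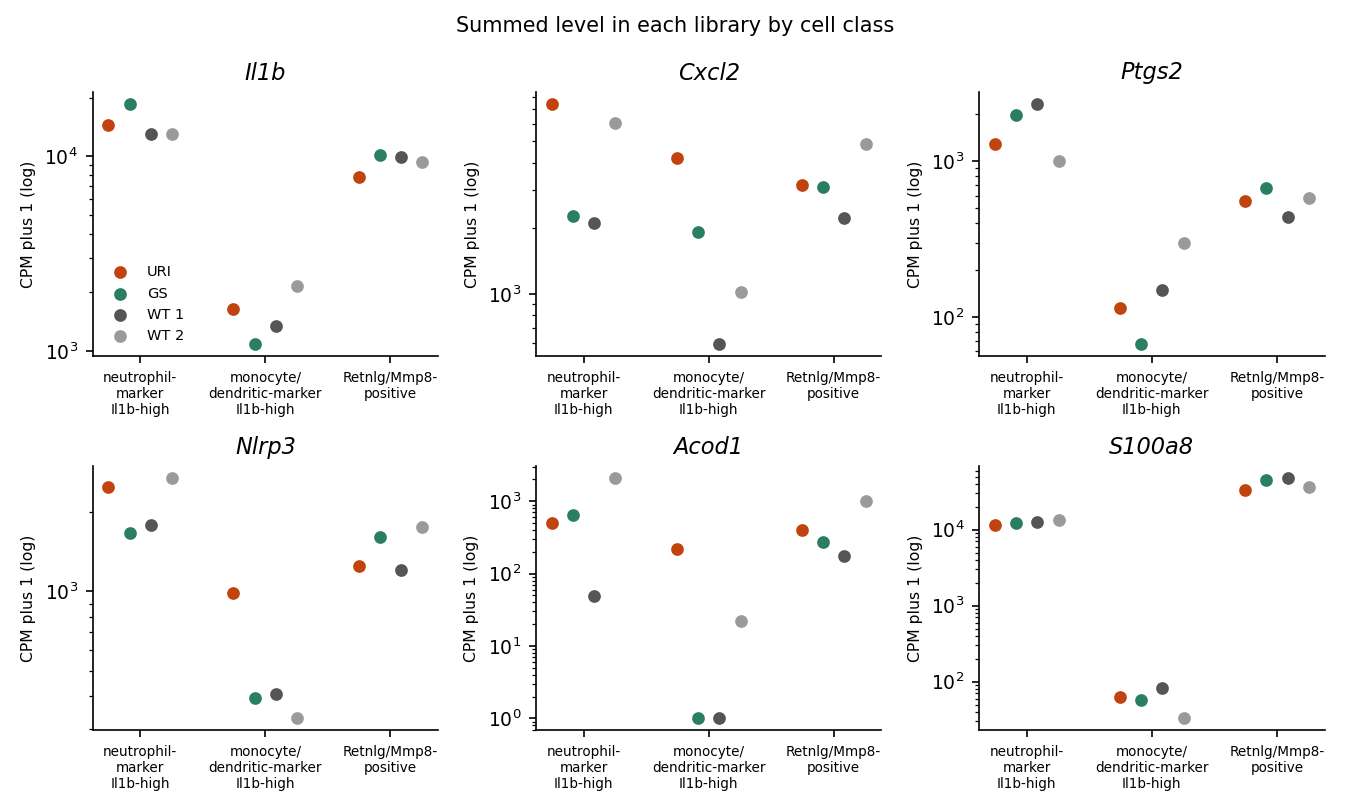
Summed level of 6 genes in CPM plus 1 (vertical, log axes) in the neutrophil-marker cells, in the monocyte/dendritic-marker cells and in Retnlg/Mmp8-positive neutrophils, 1 point per library in the order URI, GS, WT 1 and WT 2. Il1b, Ptgs2 and S100a8 were lowest in the monocyte/dendritic-marker cells in all 4 libraries, and S100a8 was highest in Retnlg/Mmp8-positive neutrophils.

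Shares of cells with a UMI were read against T cells (at least 2 Cd3e UMIs and no Csf3r), which should lack these genes. Cxcl2 was detected in 72.8% of neutrophil-marker cells (median 2398.5 UMIs per cell) and in 3.17% of T cells (median 5293 UMIs). Nlrp3 was detected in 84.6% and in 1.59%. Ptgs2 was detected in 48.5% and in 1.42%, and Acod1 in 42.6% and in 0.615%. Retnlg/Mmp8-positive neutrophils (median 3553 UMIs) had Cxcl2 in 73.2%, Nlrp3 in 89.2%, Ptgs2 in 34.7% and Acod1 in 43.2% of cells, so at these depths only Ptgs2 of the 4 genes was found in a larger share of the neutrophil-marker cells. After every cell was thinned to 1000 UMIs, which kept 110 neutrophil-marker cells, the shares were 64.5% for Cxcl2, 71.8% for Nlrp3, 45.5% for Ptgs2 and 30.0% for Acod1, against 0.845%, 0.427%, 0.263% and 0.123% of T cells. The thinned shares of Retnlg/Mmp8-positive neutrophils were 64.1%, 65.5%, 24.8% and 25.6%. Ly6g, the surface antigen used to sort mouse neutrophils, was detected in 3 of 136 neutrophil-marker cells, against 26.6% of Retnlg/Mmp8-positive neutrophils. In cells thinned to 1000 UMIs these shares were 1.82% and 11.8%, against 0.156% of T cells.

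Cells lay close to the Il1b gate on both sides of it. Just inside it, with 5 or 6 UMIs, were 29 cells, of which 15 were neutrophil-marker cells. Just outside, with 3 or 4 UMIs and every other gate passed, were 62 cells, of which 37 were. With all 4 libraries pooled, the other markers were higher just inside. Cxcl2 was at 1943 against 989 CPM, Nlrp3 at 741 against 435, Ptgs2 at 172 against 68.2 and Acod1 at 271 against 34.1. Within libraries, Cxcl2 was lower inside in WT 2, and Ptgs2 in URI and WT 1. Median UMIs were 1458 inside and 788.5 outside, and GS had 0 cells inside and 10 outside. Within each library, the neutrophil-marker cells were ranked by Il1b per UMI into 3 groups of 5 to 19 cells. Acod1 stood at 243, 510 and 712 CPM from the lowest to the highest group in URI, at 47.5, 430 and 1547 in GS, at 0, 58.9 and 72.3 in WT 1 and at 1160, 2088 and 3173 in WT 2. It was in the same order in all 4 libraries, but in GS and WT 1 the order rests on very few cells. In GS 1 cell of the highest group held 29 of the 40 Acod1 UMIs, and WT 1 had 2 UMIs in all. Ptgs2 had that order in WT 2 alone (799, 1044 and 1206) and was highest in the middle group in URI and GS. Il1b itself was a gate, and these values are a description.

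The cells made up 0.627% of kept cells in URI (exact Clopper-Pearson 95% interval 0.475 to 0.811%), 0.370% in GS (0.248 to 0.530%), 0.283% in WT 1 (0.181 to 0.421%) and 0.939% in WT 2 (0.733 to 1.19%). The WT libraries spanned the values of both deletion libraries, so no share lay outside the WT range. Set against the Il1b-high cells plus the Retnlg/Mmp8-positive neutrophils, the shares were 13.04% in URI (10.03 to 16.6%), 5.32% in GS, 5.16% in WT 1 and 8.19% in WT 2 (6.44 to 10.2%). On that scale URI was above both WT libraries and GS lay between them. With the neutrophil-marker cells alone in place of the 180 cells, the shares were 10.4% in URI (44 of 424 cells, 7.64 to 13.7%), 3.73% in GS (20 of 536), 3.71% in WT 1 (17 of 458) and 6.55% in WT 2 (55 of 840, 4.97 to 8.44%), in the same order. With every cell thinned to 1000 UMIs before the gates, the shares of kept cells were 0.987% in URI, 0.844% in GS, 0.676% in WT 1 and 1.62% in WT 2, in the same order of libraries. A comparison of 1 library with 2 cannot reach an exact permutation p below 0.333, so no test was made.

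**Figure D3:**
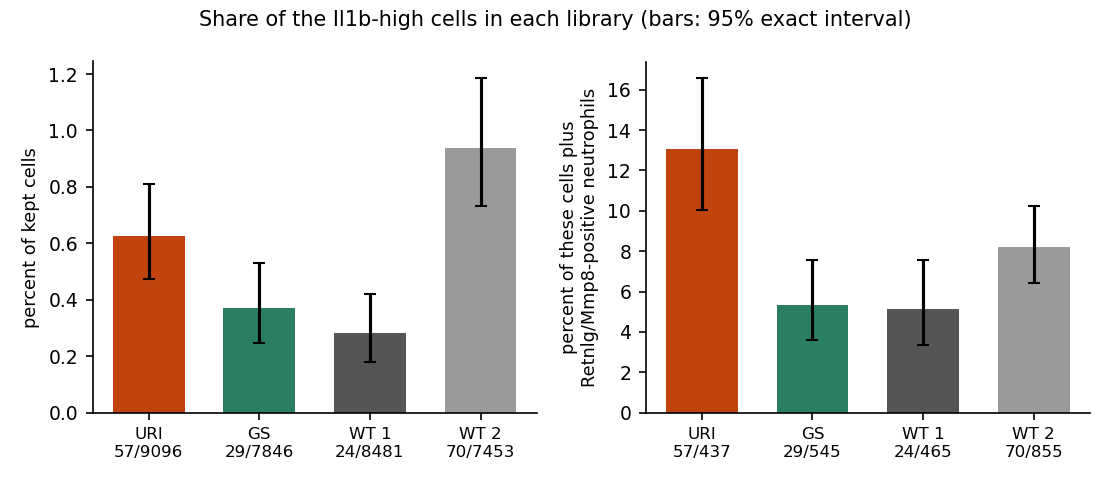
Il1b-high cells as a percentage of kept cells (left) and of the Il1b-high cells plus Retnlg/Mmp8-positive neutrophils (right) in each library, with counts under the bars and exact 95% intervals. The share of kept cells is highest in WT 2 at 0.939%, and the share on the right is highest in URI at 13.04%.

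Among neutrophil-marker cells with at least 5 Il1b UMIs, those with fewer Retnlg plus Mmp8 UMIs had less S100a8, step by step. Those with no Retnlg or Mmp8 UMI had the least, and the Il1b gate was the same in all the groups. Neutrophil-marker cells with at least 5 Il1b UMIs were placed in 5 groups, from 0 (the cells described here) through 1 to 2, 3 to 9 and 10 to 29 to 30 or more Retnlg plus Mmp8 UMIs. S100a8 stood at 11471, 12264, 12499 and 13268 CPM with none (URI, GS, WT 1, WT 2) and at 47555, 63777, 70091 and 51822 with 30 or more, and was higher in each step than in the one before it in all 4 libraries. Mmp9, the gelatinase of tertiary granules, was at 2096, 2234, 2234 and 1983 with none and at 4040, 3892, 4374 and 4027 with 30 or more.

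Between the end groups, Cxcr4, Ptgs2, Ccl3 and Icam1, 4 genes picked after their values were seen, ran the other way in at least 3 libraries. They were not the only ones. Nlrp3 was higher with no Retnlg or Mmp8 than with 30 or more in all 4 libraries (2480, 1664, 1782 and 2684 against 1126, 1531, 1097 and 1586). Cd74 and the gate gene Il1b were too, and Csf1r was in URI, WT 1 and WT 2. Acod1 was higher in URI (494 against 377), GS (652 against 332) and WT 2 (2073 against 804), and lower in WT 1 (47.5 against 182). Cxcl2 was lower with no Retnlg or Mmp8 than with 30 or more in GS (2267 against 3421) and WT 1 (2115 against 2480). The 4 picked genes did not all change step by step. Ccl3 was highest with 1 to 2 UMIs in URI (2274), GS (1877) and WT 1 (1230), as was Icam1 in WT 1 (261). Ptgs2 did not fall at every step in any library. Cxcr4, the receptor that ageing neutrophils carry, was at 1764, 1452, 903 and 1482 with no Retnlg or Mmp8 and at 536, 683, 595 and 568 with 30 or more. Ptgs2 was at 1295, 1973, 2329 and 1001 against 607, 490, 360 and 432, and Ccl3, a chemokine for monocytes and T cells, at 1628, 1517, 808 and 2473 against 875, 599, 439 and 1061. Icam1, an adhesion molecule, was at 401, 196 and 601 in URI, GS and WT 2, against 26.8, 42.3 and 58.3, and WT 1 had no such difference (23.8 against 24.2, the first from 1 UMI). Median UMIs per cell fell along the same steps, to 2960, 2763, 2367 and 1634 with none, against 5266, 4654, 4542 and 3436.5 with 30 or more. After thinning to 1000 UMIs, 7.53%, 5.93%, 8.12% and 4.81% of Retnlg/Mmp8-positive neutrophils read 0 for both genes. The part of depth in the steps was not tested.

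**Figure D4:**
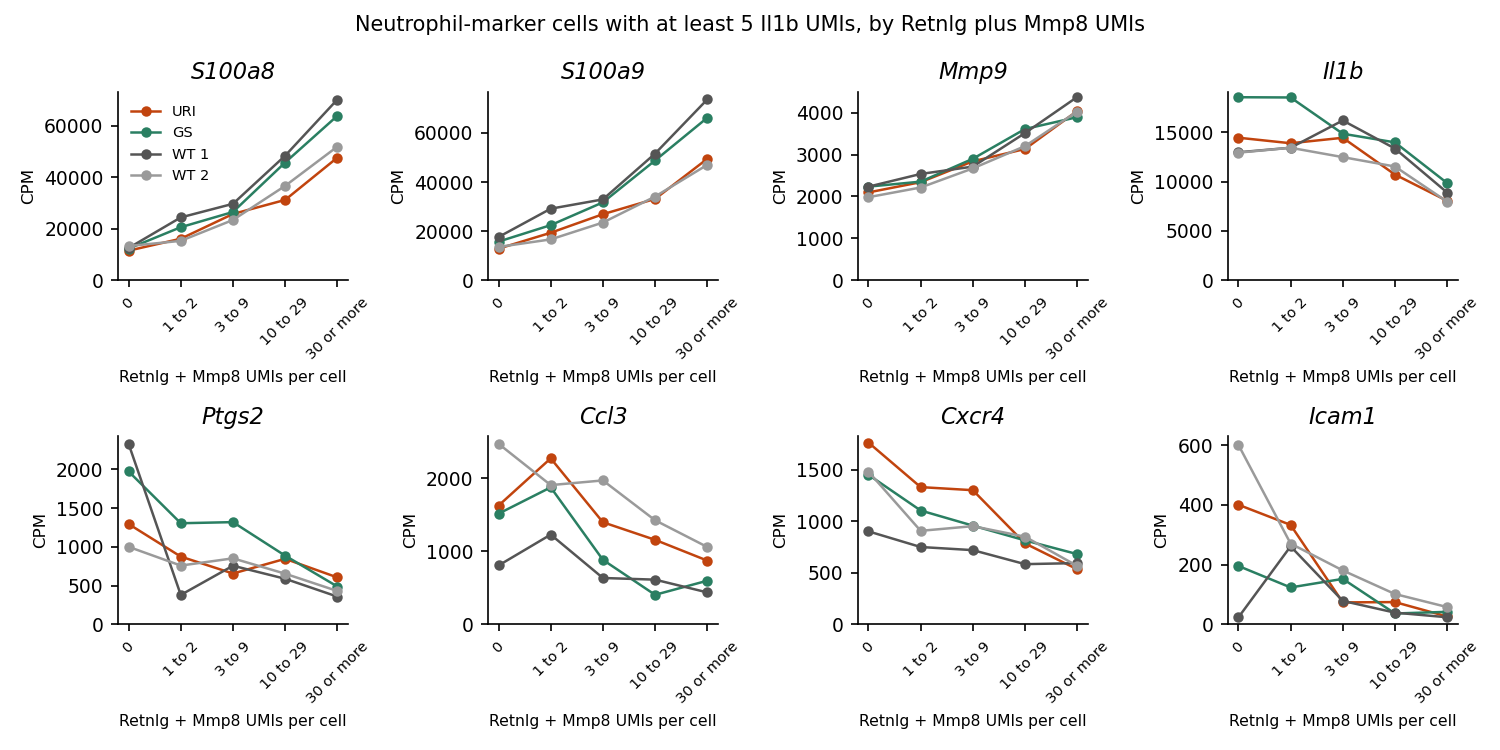
Level of 8 genes in CPM (vertical, from 0) in neutrophil-marker cells with at least 5 Il1b UMIs, grouped by Retnlg plus Mmp8 UMIs per cell (horizontal, low to high), 1 line per library. S100a8 and S100a9 are lowest at 0 and highest at 30 or more in all 4 libraries, and Cxcr4 is highest at 0 in all 4 (903 to 1764 CPM).

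The Il1b-high cells were then tested against the Retnlg/Mmp8-positive neutrophils, as UMIs summed per library and class with library as a block (edgeR quasi-likelihood test, 4 libraries). Over all 180 cells, 922 genes were higher (12.9% of 7168 tested) and 1017 lower (14.2%), at an adjusted p under 0.05. The 44 monocyte/dendritic-marker cells weighed more in these sums than their number. They supplied 97691 of 215035 UMIs in URI, 106435 of 167751 in GS, 61144 of 103227 in WT 1 and 94155 of 194021 in WT 2. All 23 neutrophil markers tested were lower, with a median log2 fold change of -1.81, beside 0.02 over all genes tested. Of 12 monocyte and macrophage markers tested 9 were higher and none lower (median 1.41), and of 5 dendritic cell markers 4 were higher (median 3.06). Among the 12 largest rises were Cxcl16, a chemokine of antigen-presenting cells (log2 fold change 4.27 ± 0.57 SE, edgeR adjusted p = 1.22e-05), Axl, a receptor for dying cells (3.77 ± 0.39), Cd83 (3.35 ± 0.44), Batf3, a dendritic cell factor (3.19 ± 0.39), Cd74 (3.18 ± 0.21), H2-Aa of MHC class II (3.06 ± 0.35) and Sdc3 (2.97 ± 0.21). Cd74 had 2335, 757, 1114 and 3293 CPM in the Il1b-high cells of URI, GS, WT 1 and WT 2, against 132, 84.7, 123 and 265 in Retnlg/Mmp8-positive neutrophils. These rises move with the 44 monocyte/dendritic-marker cells, in which Cd74 was at 5026, 1156, 1766 and 6171, while the neutrophil-marker cells had 93.7, 65.2, 166 and 581. Their part in the other rises was not tested. Of the 4 given markers that the rule did not use, Acod1 was lower by this test (-0.67 ± 0.25, edgeR adjusted p = 0.0472), and Nlrp3 (-0.57 ± 0.21, adjusted p = 0.0513), Cxcl2 (-0.60 ± 0.25, adjusted p = 0.0782) and Ptgs2 (0.15 ± 0.19, adjusted p = 0.596) did not pass. Library sizes alone, without scaling for composition, moved the median of all genes to 0.37 and the calls to 1740 higher and 494 lower, and directions are given relative to the scaled median.

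The comparison was repeated without any cell that had a UMI of Csf1r, Cd74, H2-Ab1 or Cd79a, in both classes. It left 57 Il1b-high cells, all of them among the 136 neutrophil-marker cells (21 in URI, 9 in GS, 8 in WT 1 and 19 in WT 2). Of the 2122 Retnlg/Mmp8-positive neutrophils it left 675. The cut thus removed many neutrophil-marker cells as well, since such cells also held UMIs of Csf1r. Median UMIs were 2796, 2717, 1948.5 and 931 in the Il1b-high cells left, against 4137, 3765.5, 3518 and 2728 in the Retnlg/Mmp8-positive neutrophils left. Here 35 genes were higher (1.09% of 3206 tested) and 92 lower (2.87%), and 22 of the 35 and 85 of the 92 were also called with all cells. The largest rises and falls are given by the same rule of size, level and shared direction, which was carried over to this fit after its values were seen. Because Retnlg and Mmp8 chose the classes, genes that vary with them from cell to cell may differ through the choice.

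A few genes of the NF-kB pathway and of the immediate early and stress response were higher in the Il1b-high neutrophils. Icam1 had 450, 252, 64.3 and 360 CPM in the Il1b-high cells (URI, GS, WT 1, WT 2) against 34.7, 54.4, 18.5 and 87.8, with a log2 fold change of 2.46 ± 0.46 SE (edgeR adjusted p = 0.000408, up to 0.129 under the alternatives). The WT 1 value of Icam1 in the Il1b-high cells rests on 1 UMI. Nfkbia, the inhibitor that NF-kB itself induces, had 7541, 7283, 3023 and 9371 against 3542, 2529, 1558 and 3530, and rose by 1.08 ± 0.17 (edgeR adjusted p = 4.62e-05, up to 0.874 under the alternatives). Its level in URI, GS and WT 2 was above every Retnlg/Mmp8-positive value, and its level in WT 1 was not. Of 18 NF-kB genes tested 3 rose and none fell (median 0.38). The other was Nfkbid, a nuclear partner of NF-kB (0.79 ± 0.22, edgeR adjusted p = 0.0218, up to 0.754 under the alternatives). Of 26 immediate early and stress genes 6 rose and none fell (median 0.26): Dusp2 (1.83 ± 0.46), Ppp1r15a (1.82 ± 0.23), Maff (1.80 ± 0.45), Gadd45b (1.5 ± 0.22), Atf3 (1.17 ± 0.25) and Nr4a1 (1.16 ± 0.20). Ppp1r15a, the phosphatase subunit that ends the integrated stress response, had 2251, 1442, 579 and 2955 CPM against 342, 483, 287 and 698. Dusp2 and Maff had no UMI in the 8 WT 1 cells. Over the alternatives, fitted with edgeR or DESeq2, the adjusted p reached 0.262 for Dusp2, 0.614 for Maff and 0.129 for Atf3. It stayed under 0.05 for Ppp1r15a, Gadd45b and Nr4a1. The median over all genes tested was -0.08.

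Among other genes that rose, Tgm2, a transglutaminase, changed most (2.49 ± 0.32, edgeR adjusted p = 6.07e-07), at 882, 361, 64.3 and 1045 CPM against 111, 45.6, 20.4 and 226. Its WT 1 value in the Il1b-high cells rests on 1 UMI. Ccrl2, which holds the attractant chemerin at the cell surface, rose by 2.06 ± 0.27 (edgeR adjusted p = 1.27e-06) but was lower in WT 1 (64.3 against 126, from 1 UMI). Pmaip1, which encodes the pro-apoptotic protein Noxa, rose by 1.82 ± 0.25 and had 1313, 577, 708 and 1225 against 305, 230, 115 and 309. Csf1, the macrophage growth factor, rose by 1.36 ± 0.29 (edgeR adjusted p = 0.00191, up to 0.0589 under the alternatives). Ccl3 rose by 0.66 ± 0.20 (edgeR adjusted p = 0.0419, up to 0.380 under the alternatives). In prostaglandin signalling 2 of 7 genes tested rose and none fell, Ptger4, a receptor for prostaglandin E2 (2.20 ± 0.56), and Ptgs2. Ptgs2 had 1144, 2199, 1029 and 937 CPM against 686, 742, 568 and 712, a log2 fold change of 0.75 ± 0.21 with an edgeR adjusted p of 0.0350, which ranged from 0.00223 to 0.596 under the alternatives. Nlrp3, Cxcl2 and Acod1 did not pass in this fit either, and Acod1 then had the opposite sign (0.16).

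**Figure D5:**
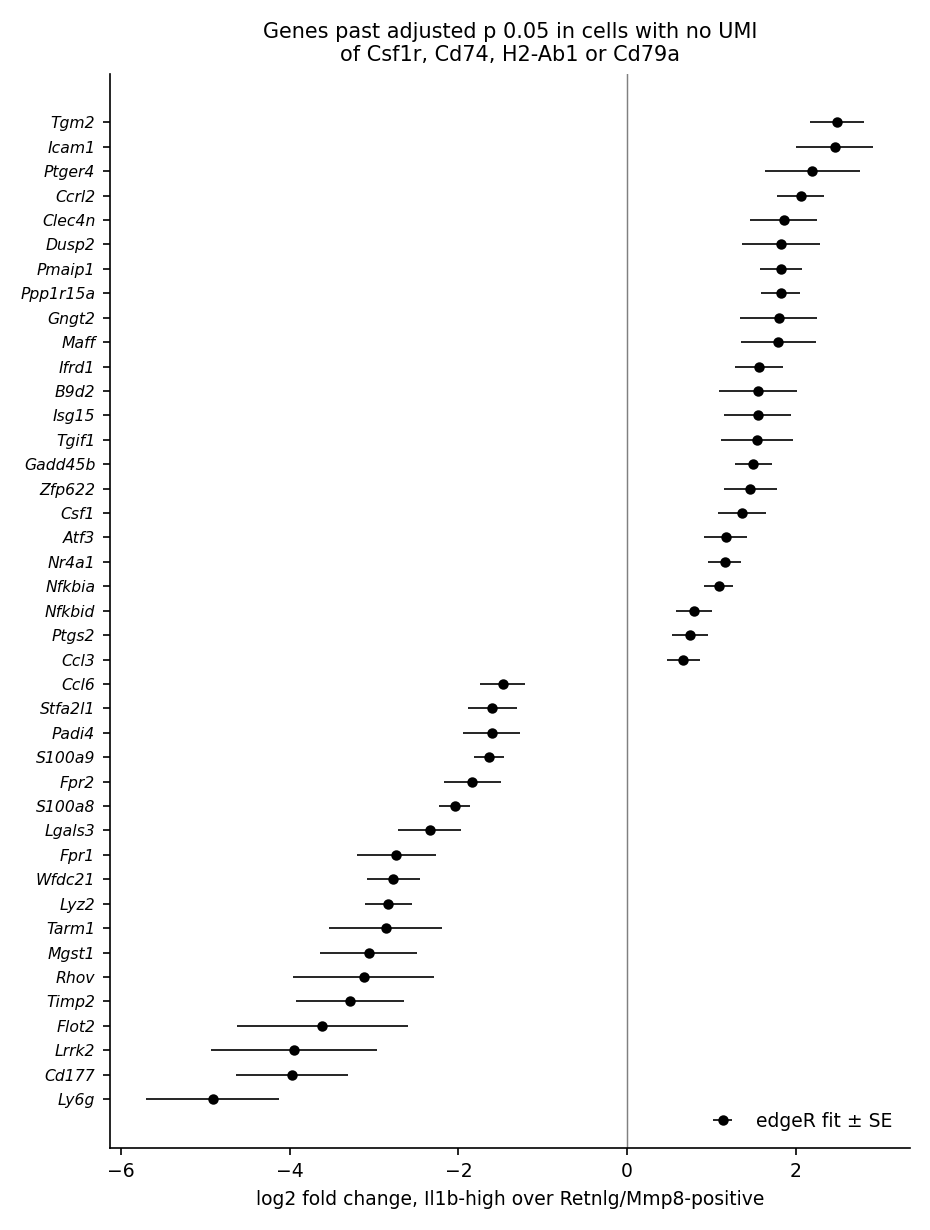
Log2 fold change (horizontal, edgeR estimate with its SE as the bar) of Il1b-high neutrophils over Retnlg/Mmp8-positive neutrophils in cells with no UMI of Csf1r, Cd74, H2-Ab1 or Cd79a, for the named genes that were higher and the 18 largest of the named falls other than Clasp1. Tgm2 and Icam1 lie highest at 2.49 and 2.46, and Ly6g lies lowest at -4.91.

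The falls included alarmins, granule proteins and receptors of neutrophils. S100a8 had 12005, 9915, 15761 and 14092 CPM in the Il1b-high neutrophils (URI, GS, WT 1, WT 2), against 40445, 51617, 57186 and 38683 in Retnlg/Mmp8-positive ones, and its log2 fold change was -2.04 ± 0.19 SE (edgeR adjusted p = 1.91e-10). The groups did not overlap for S100a8 or for S100a9 (-1.64 ± 0.18, edgeR adjusted p = 1.52e-08). Of 23 neutrophil markers tested 11 fell and none rose (median -0.66). They included the formyl peptide receptors Fpr1 (-2.74 ± 0.47) and Fpr2 (-1.84 ± 0.34), Mmp9 (-1.07 ± 0.19), Padi4, the enzyme of neutrophil traps (-1.61 ± 0.34), and the chemokine receptor Cxcr2 (-0.66 ± 0.19). Ly6g had no UMI in URI, GS or WT 1 and 36.0 CPM in WT 2, against 260, 221, 215 and 209. Cd177, the partner of proteinase 3 on the surface, had 18.8, 36.1, 0 and 0 against 230, 247, 252 and 209. Lyz2, the lysozyme of myeloid cells, had 150, 216, 257 and 180 CPM in the Il1b-high neutrophils against 1067, 1383, 1625 and 955, a log2 fold change of -2.83 ± 0.28. In the test of all 180 and 2122 cells it had the opposite sign (0.83). Wfdc21 (-2.77 ± 0.32), Lgals3, which encodes galectin-3 (-2.34 ± 0.37), and Ccl6, a chemokine (-1.48 ± 0.27), fell as well. Clasp1, a microtubule protein, had no UMI in any library of the Il1b-high neutrophils and 59.8 to 80.7 CPM in the others. Of 13 genes tested from a list of tissue and tumour neutrophils, 1 rose (Ccl3) and 2 fell (Plaur and Lgals3), and of 15 survival and death genes none rose and Gadd45a fell.

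Promoters of 4 genes that rose, of S100a8, which fell, and of the gate gene Il1b are shown for the motifs in them, from 250 bases before to 50 bases after the RefSeq start (GRCm38.p6, the first start where a gene has several). Both strands of 27025 promoters of this length were searched for the NF-kB consensus, found in 4.35% of them, and for TATAAA, found in 14.2%. The NF-kB consensus was in 5 of 29 promoters matched for the 35 higher genes (17.2%) and in 4 of 69 for the 92 lower genes (5.80%). TATAAA was in 6 of 29 and in 14 of 69 (20.7% and 20.3%). Of the other motifs searched, TGANTCA was in 1 of 29 and 7 of 69 (3.45% and 10.1%, against 7.93% of all promoters) and TTGCNNAA in 2 of 29 and 12 of 69 (6.90% and 17.4%, against 10.8%). These are matches of letters and not measured sites, and the motifs do not overlap one another in the promoters shown. Capitals mark the NF-kB consensus in Nfkbia (chr12:55492598-55492897, minus strand, where a TATAAA match on the other strand is also in capitals), Ccrl2 (chr9:111057469-111057768, minus strand), Csf1 (chr3:107760420-107760719, minus strand) and Nr4a1 (chr15:101266596-101266895, plus strand), and TATAAA in Il1b (chr2:129371090-129371389, minus strand) and S100a8 (chr3:90668821-90669120, plus strand).
Nfkbia: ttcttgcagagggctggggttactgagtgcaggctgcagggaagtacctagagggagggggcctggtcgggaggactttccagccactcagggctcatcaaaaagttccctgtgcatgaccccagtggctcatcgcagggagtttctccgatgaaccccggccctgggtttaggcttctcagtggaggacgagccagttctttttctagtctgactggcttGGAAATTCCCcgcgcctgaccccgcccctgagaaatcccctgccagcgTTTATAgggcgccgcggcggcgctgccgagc
Ccrl2: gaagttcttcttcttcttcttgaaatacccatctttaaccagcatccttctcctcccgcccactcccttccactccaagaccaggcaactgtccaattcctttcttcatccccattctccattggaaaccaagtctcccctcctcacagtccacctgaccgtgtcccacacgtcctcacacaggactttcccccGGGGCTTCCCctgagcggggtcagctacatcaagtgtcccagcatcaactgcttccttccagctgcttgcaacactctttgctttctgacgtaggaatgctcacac
Csf1: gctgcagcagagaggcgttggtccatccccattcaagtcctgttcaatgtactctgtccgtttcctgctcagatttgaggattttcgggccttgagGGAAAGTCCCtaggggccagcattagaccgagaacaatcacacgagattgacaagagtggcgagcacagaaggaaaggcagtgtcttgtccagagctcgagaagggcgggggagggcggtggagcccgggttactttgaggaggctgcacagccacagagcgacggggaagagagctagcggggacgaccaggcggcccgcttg
Nr4a1: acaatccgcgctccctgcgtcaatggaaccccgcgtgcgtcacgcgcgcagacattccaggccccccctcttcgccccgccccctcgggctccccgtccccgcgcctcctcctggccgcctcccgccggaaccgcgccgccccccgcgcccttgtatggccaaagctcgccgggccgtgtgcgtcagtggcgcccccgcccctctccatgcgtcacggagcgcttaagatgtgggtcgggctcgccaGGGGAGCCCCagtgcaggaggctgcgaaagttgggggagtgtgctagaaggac
Il1b: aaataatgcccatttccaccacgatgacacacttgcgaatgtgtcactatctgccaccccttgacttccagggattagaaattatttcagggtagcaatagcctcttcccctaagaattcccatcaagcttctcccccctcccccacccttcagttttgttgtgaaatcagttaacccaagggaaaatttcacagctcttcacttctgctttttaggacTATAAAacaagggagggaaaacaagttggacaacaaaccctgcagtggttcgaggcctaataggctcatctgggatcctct
S100a8: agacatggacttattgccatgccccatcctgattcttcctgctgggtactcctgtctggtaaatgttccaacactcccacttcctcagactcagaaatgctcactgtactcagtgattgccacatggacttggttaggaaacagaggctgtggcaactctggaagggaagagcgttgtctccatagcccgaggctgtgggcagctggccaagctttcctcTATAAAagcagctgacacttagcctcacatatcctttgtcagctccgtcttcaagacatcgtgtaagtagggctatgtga

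In Nfkbia the NF-kB match began 29 bases before the start, in Ccrl2 56, in Csf1 154 and in Nr4a1 3. The fifth higher gene with a match was B9d2, in the bases after its start. TATAAA began 31 bases before the start in Il1b and 30 in S100a8. Il1b had no NF-kB match within this window, which says nothing of other stretches of the gene.

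Across genotypes, few genes of the Il1b-high cells stood outside both WT libraries. GS and WT 1 had under 50 of the cells, so no model was fitted, and genes were described by size: at least 200 CPM in some library and more than 2-fold (with 10 added) above or below both WT values. In URI 7 of 994 genes were higher (0.704%) and 6 lower (0.604%), and in GS 7 were higher (0.704%) and 10 lower (1.01%). Between the WT libraries themselves, 82 genes were over 2-fold higher in WT 2 than in WT 1 (8.25%) and 36 lower (3.62%). Between URI and GS 49 were higher in URI (4.93%) and 26 lower (2.62%). These last 2 comparisons have 1 reference library and so a looser limit than one of both WT libraries. Against WT 2 alone, 40 genes of URI and 84 of GS were beyond 2-fold, and against WT 1 alone 136 and 58, beside 118 between the WT libraries. Both deletion libraries were compared with the same WT libraries, so their lists share a reference. The sums cover all the Il1b-high cells, the monocyte/dendritic-marker cells included.

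Tnf, Sod2 and Malt1 were above both WT libraries in URI and in GS. Tnf, the cytokine, had 814 CPM in URI (698 to 944, exact Poisson 95%) and 930 in GS (790 to 1088), against 213 in WT 1 (134 to 323) and 350 in WT 2 (272 to 444). Sod2, the mitochondrial superoxide dismutase, had 400 and 256 against 96.9 and 87.6, and Malt1, a paracaspase of NF-kB signalling, 326 and 310 against 116 and 108. The excess of Tnf lay in the monocyte/dendritic-marker cells, at 1310 in URI and 1250 in GS against 81.8 in WT 1 and 191 in WT 2. In the neutrophil-marker cells Tnf was at 401 in URI and 375 in GS against 404 and 501. Sod2 had the same distribution, at 696 and 338 against 98.1 and 106 in the monocyte/dendritic-marker cells and at 153 and 114 against 95.1 and 70.1 in the neutrophil-marker cells, where the Poisson intervals overlapped.

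Egr1, an immediate early factor, was above both WT libraries in URI, at 4353 CPM against 1162 in WT 1 and 1732 in WT 2. It stood at 4975 in the 13 URI monocyte/dendritic-marker cells against 32.7 and 510, and at 3835 in the URI neutrophil-marker cells against 2804 and 2884. Lower in URI were Chil3, a chitinase-like protein (1084 against 4292 and 2324), Ly6c2, the Ly6C antigen (158 against 484 and 613), S100a4, a calcium-binding protein (656 against 1492 and 1335) and Thbd, thrombomodulin (97.7 against 368 and 258). Thbd was below both WT libraries in GS too, at 89.4. Chil3 also lay in the monocyte/dendritic-marker cells, at 2375 in URI against 7229 and 4461, and was at most 310 in the neutrophil-marker cells of any library. In GS, Ccl5 was higher (1294 against 455 in WT 1 and 77.3 in WT 2) and moved with NK markers, as Gzma, granzyme A of NK and T cells, was at 703 in GS and 523 in WT 1 against 32.6 in URI and 5.15 in WT 2. These values lay in 2 of the 29 GS cells and 1 of the 24 WT 1 cells, which held at least 3 NK markers. Without such cells Ccl5 was at 82.2 in GS against 10.4 in WT 1 and 77.2 in WT 2. H2-Ab1 of MHC class II was lower in GS (11.9 against 126 and 1088), where no cell had 50 or more Cd74 UMIs, and Thbs1, thrombospondin, was lower as well (316 against 1269 and 799).

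Cells that passed every gate except that Csf3r was at 0 numbered 14 (5 in URI, 2 in GS, none in WT 1 and 7 in WT 2), too few for a fit. They had Cd74 at 18948, 18639 and 12732 CPM in URI, GS and WT 2 and S100a8 at 184, 0 and 260. In the 180 Il1b-high cells of the same libraries Cd74 was at 2335, 757 and 3293 and S100a8 at 6287, 4519 and 6845.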

How the data were processed

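Single-cell RNA of CD45+ mouse liver cells was measured with a fixed-RNA probe assay in 4 libraries. What the authors deposited are raw UMI counts per gene and barcode, made with Cell Ranger 8.0.0 against mm10, per the submitters' processing notes. The members and gene lists were chosen with earlier results of these data known. Barcodes with at least 500 UMIs, 250 genes and at most 10% mitochondrial UMIs were kept, and rows of 59 deprecated probes (0.0535% to 0.0710% of UMIs) were left out of the tests. The depth of each library is given in the report, and intervals cover counting error only, because UMIs of 1 pooled library are not independent animals.

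UMIs were summed per library and class and tested with edgeR 4.0.16 (quasi-likelihood, TMM, filterByExpr, Benjamini-Hochberg at 0.05) in R 4.3.3, with DESeq2 1.42.0 as an alternative. The 14 genes of the rule were dropped before adjustment. Named genes were the 12 largest rises and falls past 0.05 with a mean of at least 50 CPM in the higher class and the same direction in every library, and up to 5 genes of each list with the smallest adjusted p. This rule was carried to the fit of 57 cells, without any UMI of Csf1r, Cd74, H2-Ab1 or Cd79a, after its values were seen. On simulated counts with the same means and a set dispersion of 0.05, the class test of 6750 genes recovered 48 of 100 genes changed 2-fold and 97 of 100 changed 4-fold. The changed genes had a mean of at least 50 CPM. Counts were drawn for the fit of all cells only, so these rates do not carry over to the smaller fit of 57 cells. Doublets were scored with Scrublet through scanpy 1.11.5. Its automatic threshold marked no cell in WT 1, so the top 5% by score in each library were marked. Thinning drew 1000 UMIs per cell. Alternatives varied the gates, the comparator, scaling, filter, tool, block, depth and libraries. Figures used matplotlib 3.10.9. A withheld item is not reported here.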

Additional observations from a re-analysis of the deposited data

Results flagged for a closer look

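In 9 named genes the difference between all Il1b-high cells and Retnlg/Mmp8-positive neutrophils (TMM-scaled log2 with 10 added) ran one way in a deletion library and the other way in both WT libraries; the difference between genotypes was not tested. Cxcl2 was at 0.63 in URI against -1.47 in WT 1 and -0.96 in WT 2, and Nlrp3 at 0.23 against -0.91 and -0.72. These signs include the monocyte/dendritic-marker cells: the neutrophil-marker cells, in CPM, had more Nlrp3 than Retnlg/Mmp8-positive neutrophils in WT 1 (1782 against 1210) and WT 2 (2684 against 1756), and more Cxcl2 in WT 2 (6078 against 4861). Slc7a11, the cystine transporter, was at 0.27 in URI against -1.54 and -1.02. Chil3 was at -0.84 in URI against 1.37 and 2.24. H2-Ab1 was at -0.64 in GS against 1.62 and 3.13. The others were Lck at 0.09 in URI and 1.48 in GS against -0.39 and -0.70, Ccr7 at 0.38 in URI against -0.97 and -0.03, Tcf7 at 0.13 in URI against -0.97 and -0.24, and Siglecf at 0.04 in URI against -1.87 and -0.14.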

How the results depend on the processing

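No paired analysis was possible between genotypes because the deletion groups have 1 library each; the class comparison had library as a block. Over all cells, 922 genes were higher and 1017 lower. The counts were 315 and 465 with Il1b at least 10, 35 and 92 without cells holding a UMI of Csf1r, Cd74, H2-Ab1 or Cd79a, 405 and 565 against cells with at least 1 Retnlg plus Mmp8 UMI, and 187 and 225 after thinning. Library sizes alone gave 1740 and 494. Leaving out each library gave 545 to 954 higher and 625 to 1142 lower, least without GS. In the fit of 57 cells (35 and 92) they were 70 and 68 with library sizes alone, 20 and 59 without the library block, and 25 and 33 with DESeq2. Adding an Il1b gate of 5 to its comparator gave 26 and 75. Leaving out each library gave 25 to 33 and 50 to 92, least without URI or GS. The fits on library sizes alone, those with an Il1b gate on the comparator and every alternative to the 57-cell fit were chosen after seeing the data. The cause of each shift was not tested.

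Of 136 genes named over all cells, 19 results reversed, 18 of them by leaving out cells with those 4 genes, without and with the comparator's Il1b gate: Acod1 (0.16, 0.11), Apoe (-1.16, -1.23), Mefv (-0.23, -0.26), C5ar1 (0.03, 0.05), Ccr1 (0.13, 0.14), Pla2g7 (0.06, 0.04), Hcar2 (0.24, 0.24), Slc7a11 (0.68, 0.64) and Insig1 (-1.55, -1.58). Acod1 was at 0.20 after thinning. With those cells kept, Lyz2 (0.83) and Lgals3 (0.07) reversed.

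Shares of kept cells in URI, GS, WT 1 and WT 2 were 0.987%, 0.844%, 0.676% and 1.62% thinned, 0.231%, 0.115%, 0.0943% and 0.255% without cells with those 4 genes, and 13.04%, 5.32%, 5.16% and 8.19% of these cells plus Retnlg/Mmp8-positive neutrophils, or 10.4%, 3.73%, 3.71% and 6.55% for neutrophil-marker cells alone, a share added after seeing the data. With Il1b at least 10 they were 0.473%, 0.177% and 0.604% in URI, WT 1 and WT 2, and with at least 3 it was 1.40% in WT 2. Genes beyond both WT libraries, 13 in URI and 17 in GS, became 57 and 85 without cells with those 4 genes. Without WT 1 they were 40 and 84, and without WT 2 they were 136 and 58. The 75 between URI and GS became 127 with Il1b at least 10 and 180 without cells with those 4 genes. Depth, 8 to 70 cells per library and 1 library per deletion limit every comparison.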
